A study of Mus musculus with 24 samples.

Results

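Glucose transport, glycolysis and pyruvate entry were described by 33 listed genes of the 21793 in the deposited table, taken by symbol. No measured value entered the rule, but the list was chosen with earlier results of these data known. The 33 genes were measured by RNA-seq in the hippocampus of 24 female mice on 3 diets. The members are 2 glucose transporters, 10 genes of upper glycolysis, 6 of lower glycolysis, 2 lactate dehydrogenases, 8 genes of pyruvate entry into the mitochondrion, 3 pyruvate dehydrogenase kinases and 2 genes of the pentose phosphate branch.

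Mice labelled 3xTg-AD (3xTg), which model Alzheimer's disease, carry human APP and MAPT transgenes driven by a Thy1 cassette that is active in neurons, and B6129SF2/J mice (WT) were the comparison strain. Mice were 3 months old when a 6-month diet began. The ketogenic diet held 90% long-chain triglyceride, 10% protein and no carbohydrate. Carbohydrate made up 70% of the MCT diet, beside 10% medium-chain triglyceride, 10% long-chain triglyceride and 10% protein. In the control diet 70% was carbohydrate, 20% long-chain triglyceride and 10% protein. The groups were 5 3xTg mice on ketogenic, 4 on MCT and 3 on control diet, and 4 WT mice on each diet. Libraries are named by strain, diet (K, M or C) and replicate. The question the design poses is whether genotype, or the fuel supplied by the diet, went with a different level of the genes that take up and break down glucose.

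Neurons and glia burn glucose as their main fuel. Glucose crosses the blood-brain barrier through Slc2a1 (GLUT1) and enters neurons through Slc2a3 (GLUT3). Hexokinase traps it, phosphofructokinase sets the pace of its breakdown, and pyruvate is either reduced to lactate or carried into the mitochondrion, where the pyruvate dehydrogenase complex turns it into acetyl-CoA. The kinases of that complex switch it off, and ketone bodies reach acetyl-CoA by a route that bypasses these steps.

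Libraries held between 10.1 and 25.8 M reads, except for the 3xTg ketogenic library 3xTg_K_2 with 2.65 M. All 33 members passed the filter of a normalised count of at least 10 in at least 3 libraries, and the lowest member count was 31 reads in the shallow library and 73 reads in the other libraries. The members together took between 0.681% and 0.763% of the normalised counts of a library. Thy1, which the transgene cassette raises, stood at 20385 to 29277 in 10 of the 3xTg libraries and at 6952 to 8137 in 11 of the WT libraries. It went against the label in 3 libraries, with 9189 in the library labelled 3xTg_C_3, 8112 in that labelled 3xTg_K_1 and 23048 in that labelled WT_M_2. Results are therefore given with all 24 libraries and with the 21 others. Neuronal markers summed to between 94506 and 100609 in 3xTg libraries and 93010 and 102356 in WT libraries, and no defining marker of neurons, astrocytes, oligodendrocytes or dentate granule cells was at 0 everywhere.

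Averaged over diets, 5 of the 33 members (15.2%) differed between genotypes in limma at an adjusted p under 0.05, against 8.1% of all 14162 genes tested. Slc2a1, Pdhx and Dld rose in 3xTg, where 3.71% of all genes were called higher, and Pfkl and Pgam1 fell, where 4.38% were called lower. edgeR called 5 members and 8.57% of genes, and DESeq2 6 members and 10% of genes. In the 21 libraries, 4 members (12.1%) were called, against 13.2% of 14126 genes, namely Slc2a1 and Pdhx as higher, against 6.31% of genes, and Pfkl and Pcx as lower, against 6.84%. Slc2a1, Pdhx and Pfkl were called in both. The count of 5 leaned on single libraries. It was 0 without 3xTg_C_1, and 1 without 3xTg_M_1, 3xTg_M_2 or WT_C_3. It was 2 without 3xTg_K_2, WT_C_4, WT_K_2, WT_M_1, WT_M_3 or WT_M_4, and 3 without 3xTg_K_1, 3xTg_K_3, 3xTg_K_4, WT_C_2, WT_K_1 or WT_K_4. In the 21 libraries the count was 1, Pfkl, without 3xTg_C_1. Over all 33 members, 17 were higher and 16 lower in 3xTg with 24 libraries, and 15 were higher and 18 lower with 21, since G6pdx and Pdk1 changed sign between them. Their median difference with 24 libraries was 0.00 on the log2 scale, against -0.00 over all genes. The median size of the difference was 0.03 on the log2 scale, against 0.07 over all genes, which were not matched to the members for level. A bulk library cannot tell fewer cells of a type apart from less RNA per cell.

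The promoters of Slc2a1, Pdhx and Pfkl are shown because these members were called both with all 24 libraries and with the 21. They are RefSeq sequences on GRCm38.p6, from 250 bases before to 50 after the RefSeq start of the gene, read 5′ to 3′ along the gene's own strand. The gene positions given below are from GENCODE, which can place the start elsewhere. In GENCODE Pfkl starts at 78010083 on the minus strand, so its window lies wholly inside the gene and holds no base before that start. Capitals mark ACGTG and GCGTG, the core letters of hypoxia response elements, searched on both strands (CACGT and CACGC on the other). Slc2a1 lies at chr4:119108495-119108794 on the plus strand, Pdhx at chr2:103073464-103073763 on the minus strand and Pfkl at chr10:78009758-78010057 on the minus strand.
Slc2a1: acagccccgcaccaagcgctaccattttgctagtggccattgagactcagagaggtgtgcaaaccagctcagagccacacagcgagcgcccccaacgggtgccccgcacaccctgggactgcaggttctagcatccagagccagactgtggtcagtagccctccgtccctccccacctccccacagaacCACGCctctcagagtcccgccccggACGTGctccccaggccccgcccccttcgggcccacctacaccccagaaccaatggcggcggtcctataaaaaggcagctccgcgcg
Pdhx: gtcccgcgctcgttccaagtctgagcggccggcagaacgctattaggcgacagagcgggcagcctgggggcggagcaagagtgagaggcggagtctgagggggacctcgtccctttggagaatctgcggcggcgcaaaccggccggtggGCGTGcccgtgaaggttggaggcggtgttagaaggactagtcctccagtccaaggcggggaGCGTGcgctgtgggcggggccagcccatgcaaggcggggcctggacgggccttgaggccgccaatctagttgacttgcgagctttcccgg
Pfkl: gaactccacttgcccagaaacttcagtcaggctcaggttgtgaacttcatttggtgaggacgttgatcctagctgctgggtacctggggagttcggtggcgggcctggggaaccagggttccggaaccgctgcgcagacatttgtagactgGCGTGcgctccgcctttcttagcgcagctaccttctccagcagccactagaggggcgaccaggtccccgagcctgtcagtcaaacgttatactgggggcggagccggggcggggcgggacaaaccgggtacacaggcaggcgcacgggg

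The Slc2a1 promoter held 1 ACGTG and 1 GCGTG, that of Pdhx held 2 GCGTG, and that of Pfkl held 1 GCGTG. A promoter was matched for 32 members, and a gene was counted when any of its promoters held the letters. ACGTG was found in 17 members (53.1%), against 28.5% of the 11170 tested genes with a promoter. How many promoters each gene had was not taken into account. GCGTG was found in 21 (65.6%), against 54.8%. The palindrome CACGTG, which contains ACGTG and is the E-box letters that carbohydrate-responsive and other bHLH factors bind, was found in 5 (15.6%), against 11.4%. The median GC content of the promoters was 62.0% for the members and 61.0% for the tested genes.

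Slc2a1 (ENSMUSG00000028645, chr4:119108711-119137983) on GRCm38, as for all gene positions here, encodes GLUT1, the transporter of the endothelium and of astrocytes. Its normalised counts in 3xTg mice were 1226.1, 1501.7, 1378.2, 989.3 and 1033.1 on the ketogenic diet, 1865.6, 1403.3, 1351.5 and 1084.7 on MCT, and 1533.4, 1416.3 and 1074.2 on control. In WT mice they were 834.7, 901.9, 1077.5 and 1142.3 on the ketogenic diet, 901.4, 1305.5, 1055.1 and 1266.6 on MCT, and 1332.5, 1094.0, 1048.7 and 924.7 on control. Of the 12 3xTg libraries, 7 lay above the highest WT library, and the 2 libraries at the low end of 3xTg were both on the ketogenic diet, so the genotypes overlapped. The mean was 1321 ± 255 in 3xTg and 1074 ± 166 in WT (SD, n = 12 each), a log2 difference of 0.30 ± 0.09 (SE) with a limma adjusted p of 0.0435. In the 21 libraries it was 0.38 ± 0.10, with an adjusted p of 0.0119. The call was lost in 14 of the 24 fits that left out a library, over which the difference stayed between 0.26 and 0.35. Among the fits that left out 1 of the 21 libraries, it was lost only without 3xTg_C_1, with an adjusted p of 0.0566 in limma. No other member varied as much between libraries: its coefficient of variation was 20.5%. Slc2a3 did not pass the test, at 0.02 on the log2 scale with an interval from -0.05 to 0.09 (95%).

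Cell types that hold GLUT1 were followed by their markers. Of 6 endothelial markers, 5 were lower in 3xTg and 3 were called lower, with sums between 2346 and 2959 in 3xTg and 2685 and 3132 in WT. Of 6 astrocyte markers, 4 were higher, with 1 called in each direction, and their sums lay between 22113 and 24658 in 3xTg and 20509 and 25039 in WT. Among other cell types, all 6 oligodendrocyte markers were higher in 3xTg, 3 of them called, all 6 microglial markers were higher, 2 of them called, and 4 of 5 dentate granule cell markers were lower, 3 of them called. In the 21 libraries, 4 of 6 oligodendrocyte markers were higher, 2 of them called, 5 of 6 microglial markers were higher, 3 of them called, and 3 of 5 dentate granule cell markers were lower, all 3 called. Endothelial markers had the same counts in the 21 libraries, and of the 6 astrocyte markers 4 were higher, with 2 called higher and 1 lower. Their part in the results on Slc2a1 and the other members was not tested. Gm12867 and Gm12868 overlap Slc2a1 on the opposite strand, and the strand setting of the counting is not given in the sources used here.

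Within upper glycolysis, 3 members were higher and 7 lower in 3xTg, and 1 passed the test. Pfkl (ENSMUSG00000020277, chr10:77986947-78010083) encodes the liver-type subunit of phosphofructokinase, the committing step of glycolysis. In 3xTg mice its normalised counts were 2720.3, 2484.9, 2491.2, 2518.6 and 2425.6 on the ketogenic diet, 2322.1, 2318.0, 2705.4 and 2463.4 on MCT, and 2404.3, 2347.4 and 2607.3 on control. In WT mice they were 2751.2, 2670.8, 2560.8 and 2514.1 on the ketogenic diet, 2700.2, 2521.7, 2781.4 and 2935.2 on MCT, and 2448.8, 2741.4, 2906.0 and 2935.4 on control. All 12 3xTg libraries lay below the WT median, 5 of them below the lowest WT library. The mean was 2484 ± 136 in 3xTg and 2706 ± 169 in WT (SD, n = 12 each), a log2 difference of -0.13 ± 0.04 (limma, adjusted p = 0.0282), and it was -0.16 ± 0.04 in the 21 libraries (adjusted p = 0.00374). The call held in each of the 21 fits that left out 1 of those 21 libraries, and was lost in 7 of the 24 fits over all libraries. The other phosphofructokinase subunits were not called, with Pfkm at 0.02 (95% interval -0.04 to 0.07) and Pfkp at -0.03 (-0.09 to 0.04) on the log2 scale. Tpi1, triosephosphate isomerase, was at 0.09 ± 0.03 with an adjusted p of 0.0684, just outside the threshold.

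In lower glycolysis, 2 members were higher and 4 lower, and Pgam1 was called. Pgam1 (ENSMUSG00000011752, chr19:41911923-41918660) encodes phosphoglycerate mutase. Its lowest, median and highest normalised counts were 223.8, 255.0 and 302.7 in 3xTg libraries and 245.0, 285.5 and 316.3 in WT libraries, so the ranges overlapped over most of their length, with 4 3xTg libraries below the lowest WT library. The mean was 255 ± 24 in 3xTg and 282 ± 22 in WT (SD, n = 12 each), a log2 difference of -0.16 ± 0.05 (limma, adjusted p = 0.0495). In the 21 libraries it was -0.17 ± 0.06 with an adjusted p of 0.0522. Leaving out a library ended the call in 18 of 24 fits, with differences from -0.18 to -0.14. Of its transcript windows of 100 bases, 39.7% were also found in 2 annotated pseudogenes, and how the counting treated reads that match several genes is not given, so its level is uncertain. Gapdh, glyceraldehyde-3-phosphate dehydrogenase and a common reference gene in expression assays, was at 0.03 on the log2 scale (95% interval -0.06 to 0.12).

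Pyruvate entry held 5 members that were higher and 3 that were lower in 3xTg, with 2 called as higher. Pdhx (ENSMUSG00000010914, chr2:103021075-103073513) encodes the protein X that binds the dihydrolipoamide dehydrogenase of the pyruvate dehydrogenase complex. In 3xTg mice its normalised counts were 870.3, 918.3, 775.8, 956.4 and 785.1 on the ketogenic diet, 850.0, 925.4, 893.1 and 951.7 on MCT, and 912.8, 802.2 and 843.3 on control. In WT mice they were 794.9, 812.9, 774.7 and 779.5 on the ketogenic diet, 742.0, 855.3, 818.4 and 788.1 on MCT, and 751.6, 757.8, 748.7 and 831.5 on control. Of the 12 3xTg libraries, 7 lay above the highest WT library and 11 above the WT median. The mean was 874 ± 63 in 3xTg and 788 ± 36 in WT (SD, n = 12 each), a log2 difference of 0.15 ± 0.04 (limma, adjusted p = 0.0185), and 0.16 ± 0.04 in the 21 libraries (adjusted p = 0.0159). Leaving out 3xTg_C_1 ended the call, with an adjusted p of 0.0620 and a difference of 0.13, and this was the only one of the 24 libraries that did so.

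Dld (ENSMUSG00000020664, chr12:31331277-31351453), the dehydrogenase that re-oxidises the lipoyl groups of this complex, had a lowest, median and highest normalised count of 2736.0, 2873.3 and 3180.8 in 3xTg libraries and 2591.5, 2751.7 and 2863.8 in WT libraries. Of the 12 3xTg libraries, 6 lay above the highest WT library, and all 12 above the WT mean. The mean was 2925 ± 166 in 3xTg and 2731 ± 99.6 in WT (SD, n = 12 each), a log2 difference of 0.10 ± 0.03 with a limma adjusted p of 0.0439, and 0.09 ± 0.03 with an adjusted p of 0.103 in the 21 libraries. Leaving out a library ended the call in 15 of 24 fits, with differences from 0.09 to 0.12. Pcx (ENSMUSG00000024892, chr19:4510472-4621752), pyruvate carboxylase, which makes oxaloacetate and is a glial enzyme in brain, had a lowest, median and highest count of 640.4, 674.5 and 783.2 in 3xTg libraries and 659.9, 718.8 and 812.7 in WT libraries. Its log2 difference was -0.10 ± 0.04 with a limma adjusted p of 0.114, and -0.14 ± 0.04 with an adjusted p of 0.0315 in the 21 libraries, where all 10 3xTg libraries lay below the WT median. That call held in 13 of the 21 fits that left out 1 of those libraries, with an adjusted p of up to 0.111 in limma. Pdha1 and Dlat, the E1 and E2 subunits, were at 0.08 and 0.06 on the log2 scale with limma adjusted p of 0.0798 and 0.198, and Mpc1 and Mpc2, the pyruvate carrier, were at 0.04 and -0.03.

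The other members of glycolysis lay near 0. Hk1 was at -0.02, Hk2 at 0.02, Gpi1 at -0.02, Pfkfb3 at -0.05, Aldoa at -0.02 and Aldoc at -0.03 on the log2 scale. In lower glycolysis Pgk1 was at -0.01, Eno1 at 0.09, Eno2 at -0.02 and Pkm at -0.00. Pdhb, the other E1 subunit, was at -0.03.

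The lactate dehydrogenases, the kinases and the pentose phosphate branch held no called member. Of the lactate dehydrogenases, Ldhb was at 0.06 on the log2 scale (95% interval -0.00 to 0.12) and Ldha at -0.03 (-0.11 to 0.04). Of the pyruvate dehydrogenase kinases Pdk1, Pdk2 and Pdk3, the one with the smallest p was Pdk3, at -0.03 (-0.11 to 0.06). The pentose phosphate members were G6pdx at 0.04, with -0.01 in the 21 libraries, and Pgd at 0.08. With 24 libraries the 95% intervals of all 33 members lay within 0.5 on the log2 scale in either direction, and those of 31 within 0.25. In the 21 libraries those of 32 lay within 0.5 and of 31 within 0.25, with that of Slc2a1 reaching 0.58.

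**Figure D1:**
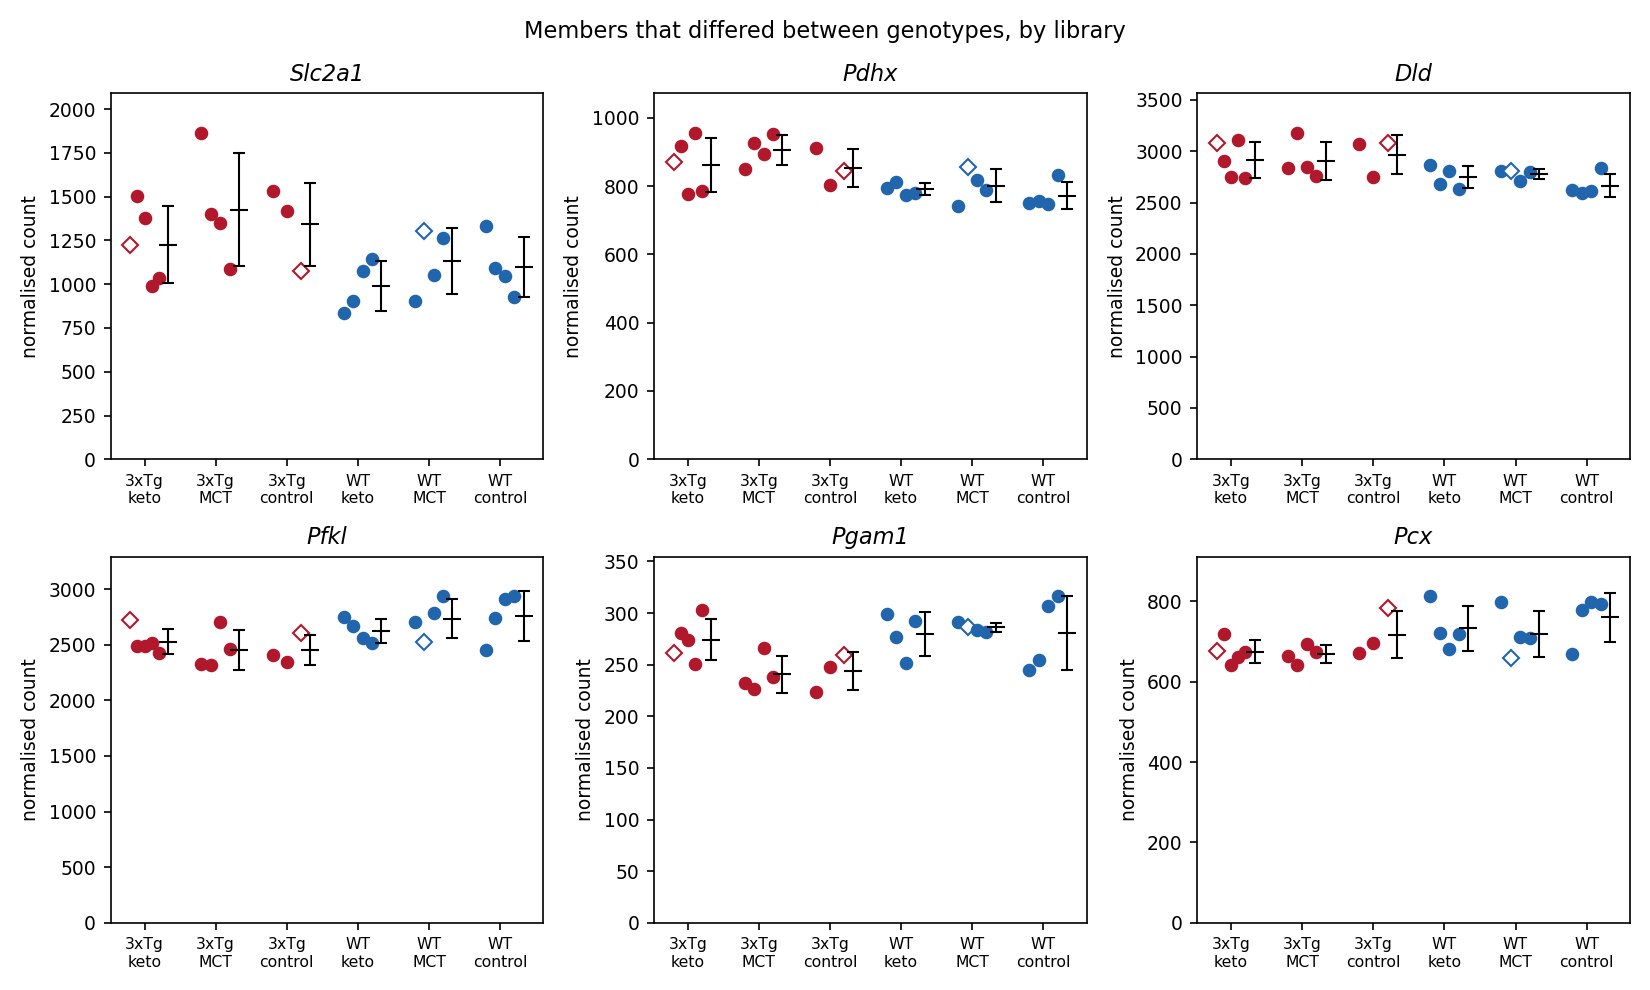
Normalised counts (y axis, from 0) of the 6 members called between genotypes, with all 24 libraries or in the 21, by group (x axis). Circles are libraries, open diamonds the 3 whose Thy1 went against the label, and the bar beside each group is its mean ± SD. Slc2a1 and Pdhx stand higher in 3xTg and Pfkl lower, with overlap between the genotypes in each.

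**Figure D2:**
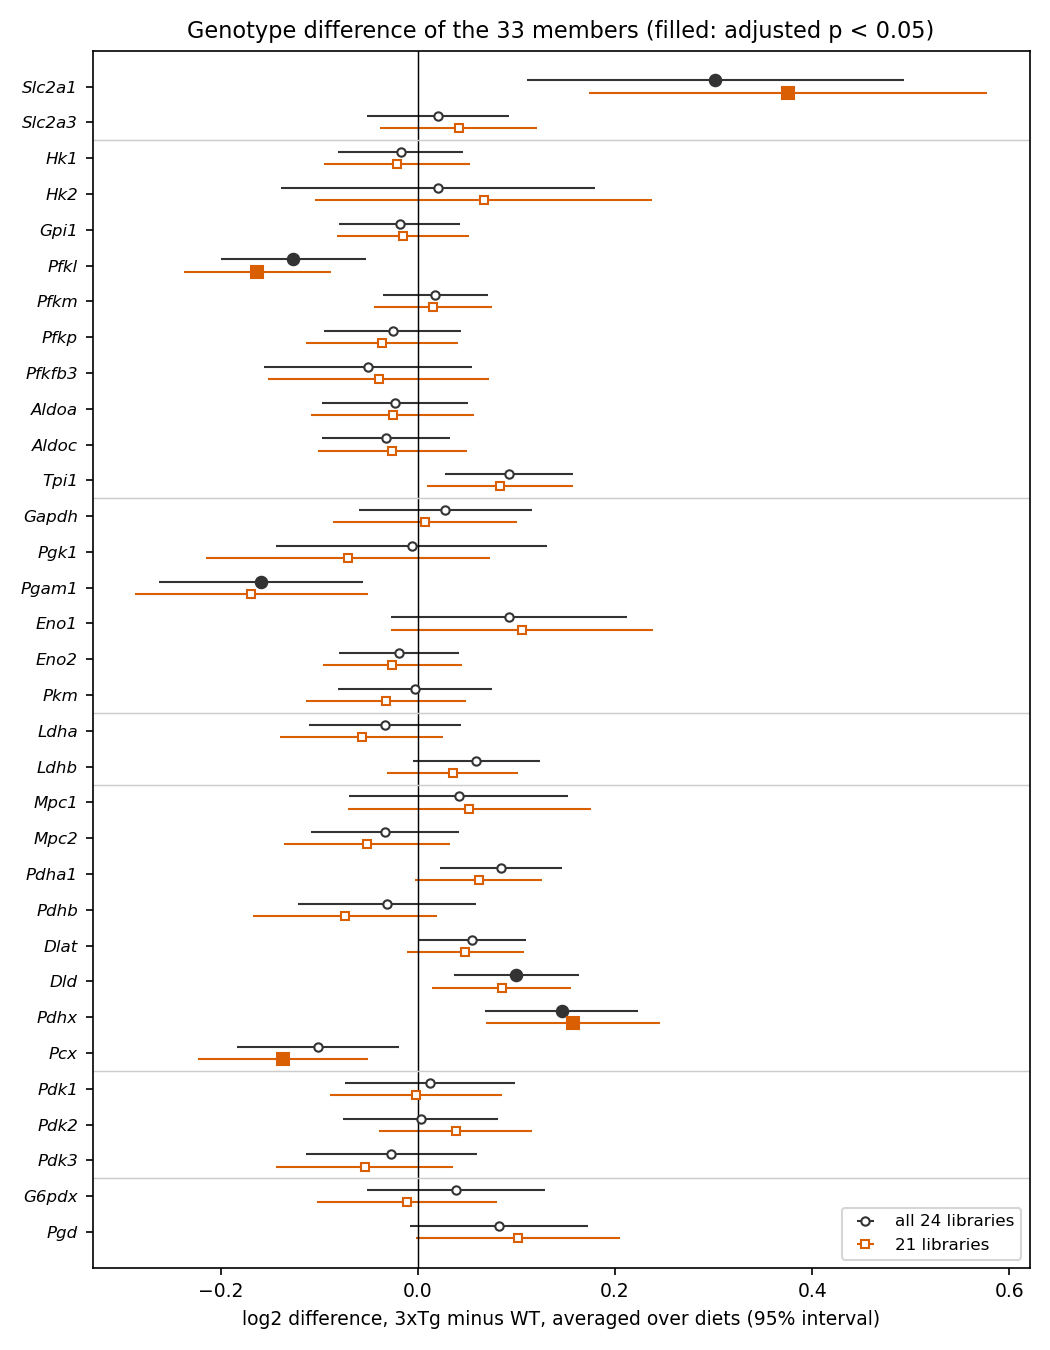
Log2 difference 3xTg minus WT averaged over diets (x axis) with its 95% interval for each of the 33 members (y axis), for all 24 libraries (circles) and for 21 (squares). Filled symbols have an adjusted p under 0.05, 5 circles and 4 squares, and most other members lie within 0.1 of 0.

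Within single diets no member was called between genotypes by limma, edgeR or DESeq2 with all 24 libraries, nor by limma in the 21. On the ketogenic diet limma called 0.155% of all genes with 24 libraries and 3.62% with 21, edgeR 0.0353% and DESeq2 1.06%. On the MCT diet limma called 0% with 24 libraries and 1.77% with 21, edgeR 0% and DESeq2 0.198%. On the control diet limma called 0.0565% with 24 libraries and 1.74% with 21, edgeR 0.0494% and DESeq2 1.55%. At an unadjusted p under 0.05 limma with 24 libraries had 0 members on the ketogenic diet, against 14.6% of all genes. It had 4 members (12.1%) on the MCT diet, against 7.12% of all genes, and 7 (21.2%) on the control diet, against 14.5%. In the 21 libraries it had 1 (3.03%) on ketogenic, against 18%, and 5 (15.2%) on MCT, against 10.6%. On control it had 4 (12.1%), against 14.9%, so the share there went from above to below that of all genes.

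On the ketogenic diet the member with the smallest p was Slc2a1, at 0.30 on the log2 scale (95% interval -0.01 to 0.61, limma adjusted p = 0.352). On the MCT diet it was Pgam1, at -0.25 (-0.43 to -0.07, limma adjusted p = 0.475). On the control diet it was Ldhb, at 0.16 (0.04 to 0.28, limma adjusted p = 0.229). The members called over all diets kept their direction on each of them. Slc2a1 was at 0.30 on ketogenic, 0.32 on MCT and 0.28 on control, and Pdhx at 0.12, 0.18 and 0.14 in the same order of diets. Pfkl was at -0.05 on ketogenic (95% interval -0.17 to 0.07), -0.16 on MCT (-0.28 to -0.03) and -0.17 on control (-0.30 to -0.03). Dld was at 0.08 on ketogenic, 0.06 on MCT and 0.15 on control, and Pgam1 at -0.03, -0.25 and -0.20.

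No member was called between diets. This held for limma, with all 24 libraries and with 21, and for edgeR and DESeq2. The background was as low, with limma calling 0% of genes for ketogenic minus control averaged over genotypes, both with 24 and with 21 libraries, and edgeR and DESeq2 0%. With no filter on low values limma called 1 gene in that comparison. For MCT minus control averaged over genotypes, limma called 0% of genes with 24 libraries and 0.0142% with 21, edgeR 0.00706% and DESeq2 0.0141%. No member had an unadjusted p under 0.05 in either of these averaged comparisons. Of all genes, 706 (4.99%) had one for ketogenic and 601 (4.24%) for MCT.

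Averaged over genotypes, the ketogenic minus control difference ran from -0.14 for Slc2a1 to 0.08 for Pgam1 on the log2 scale. The 95% intervals of all 33 members lay within 0.5 in either direction and those of 32 within 0.25. Slc2a1 had the interval from -0.38 to 0.09, with means of 1226 ± 219 on ketogenic and 1341 ± 239 on control in 3xTg (SD, n = 5 and 3), and 989 ± 145 on ketogenic and 1100.0 ± 171 on control in WT (SD, n = 4 each). The members with the smallest p in their group were Aldoa at -0.07 in upper and Pgam1 in lower glycolysis, Ldhb at -0.02, Pcx at -0.07, Pdk2 at -0.04 and Pgd at -0.09.

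The MCT minus control difference ran from -0.09 for Pcx to 0.18 for Hk2, the inducible hexokinase, and the intervals of all 33 lay within 0.5 and of 29 within 0.25. By group, the smallest p belonged to Slc2a3 at 0.02, Pfkfb3, which makes the activator of phosphofructokinase, at 0.12, Eno1 at 0.10, Ldhb at -0.03, Pcx, Pdk2 at 0.06 and Pgd at -0.08. Pfkfb3 had the smallest of all, with a limma adjusted p of 0.9998.

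Set against each other, ketogenic minus MCT ran from -0.20 for Slc2a1 (95% interval -0.43 to 0.03) to 0.08 for Pgam1. Limma called 0.00706% of all genes with 24 libraries and 0.0142% with 21, and DESeq2 0.0141%. All 10 members of upper glycolysis were lower on the ketogenic diet as values, with a median of -0.04, and none was called. Of all 33 members 22 were lower, as were 7271 of the 14162 genes tested. Whether the members moved together was not tested. With 24 libraries, Eno1, an enolase, at -0.16 (95% interval -0.31 to -0.02) and Pdk2 at -0.11 (-0.20 to -0.01) were the 2 members with an unadjusted p under 0.05 (6.06%, against 4.75% of all genes), with a limma adjusted p of 0.981. In the 21 libraries no member had one, against 3.89% of all genes. The smallest p in the other groups of members, with 24 libraries, belonged to Aldoa at -0.08, Ldha at 0.04, Dlat at -0.05 and G6pdx at 0.06. The 3 averaged comparisons share libraries with each other. Within single genotypes the 4 comparisons of a diet with control called no member. Limma called 0% of genes in 3 of them with all 24 libraries, and 0.00706% for MCT minus control in WT, where it called 0.0212% with 21 libraries and DESeq2 0.0212%. Eno1 was at 0.21 in that comparison with 24 libraries (95% interval 0.01 to 0.42), and at 0.20 ± 0.11 (SE) with 21. Of its transcript windows of 100 bases, 59.0% were found in other genes, mostly Eno1b.

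The interactions of diet with genotype called no member, and limma called 0% of genes with 24 libraries and 0.0142% with 21 for the MCT diet. That of Ldhb with the ketogenic diet was -0.18 ± 0.08 on the log2 scale (limma adjusted p = 0.724), the only member with an unadjusted p under 0.05 (3.03%, against 6.68% of all genes). Its mean was 3139 ± 264 on the ketogenic and 3375 ± 137 on the control diet in 3xTg (SD, n = 5 and 3), and 3172 ± 84.6 on the ketogenic and 3024 ± 91.0 on the control diet in WT (SD, n = 4 each). Interactions had wider intervals, of which 30 of 33 lay within 0.5 for the ketogenic and 29 for the MCT diet.

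**Figure D3:**
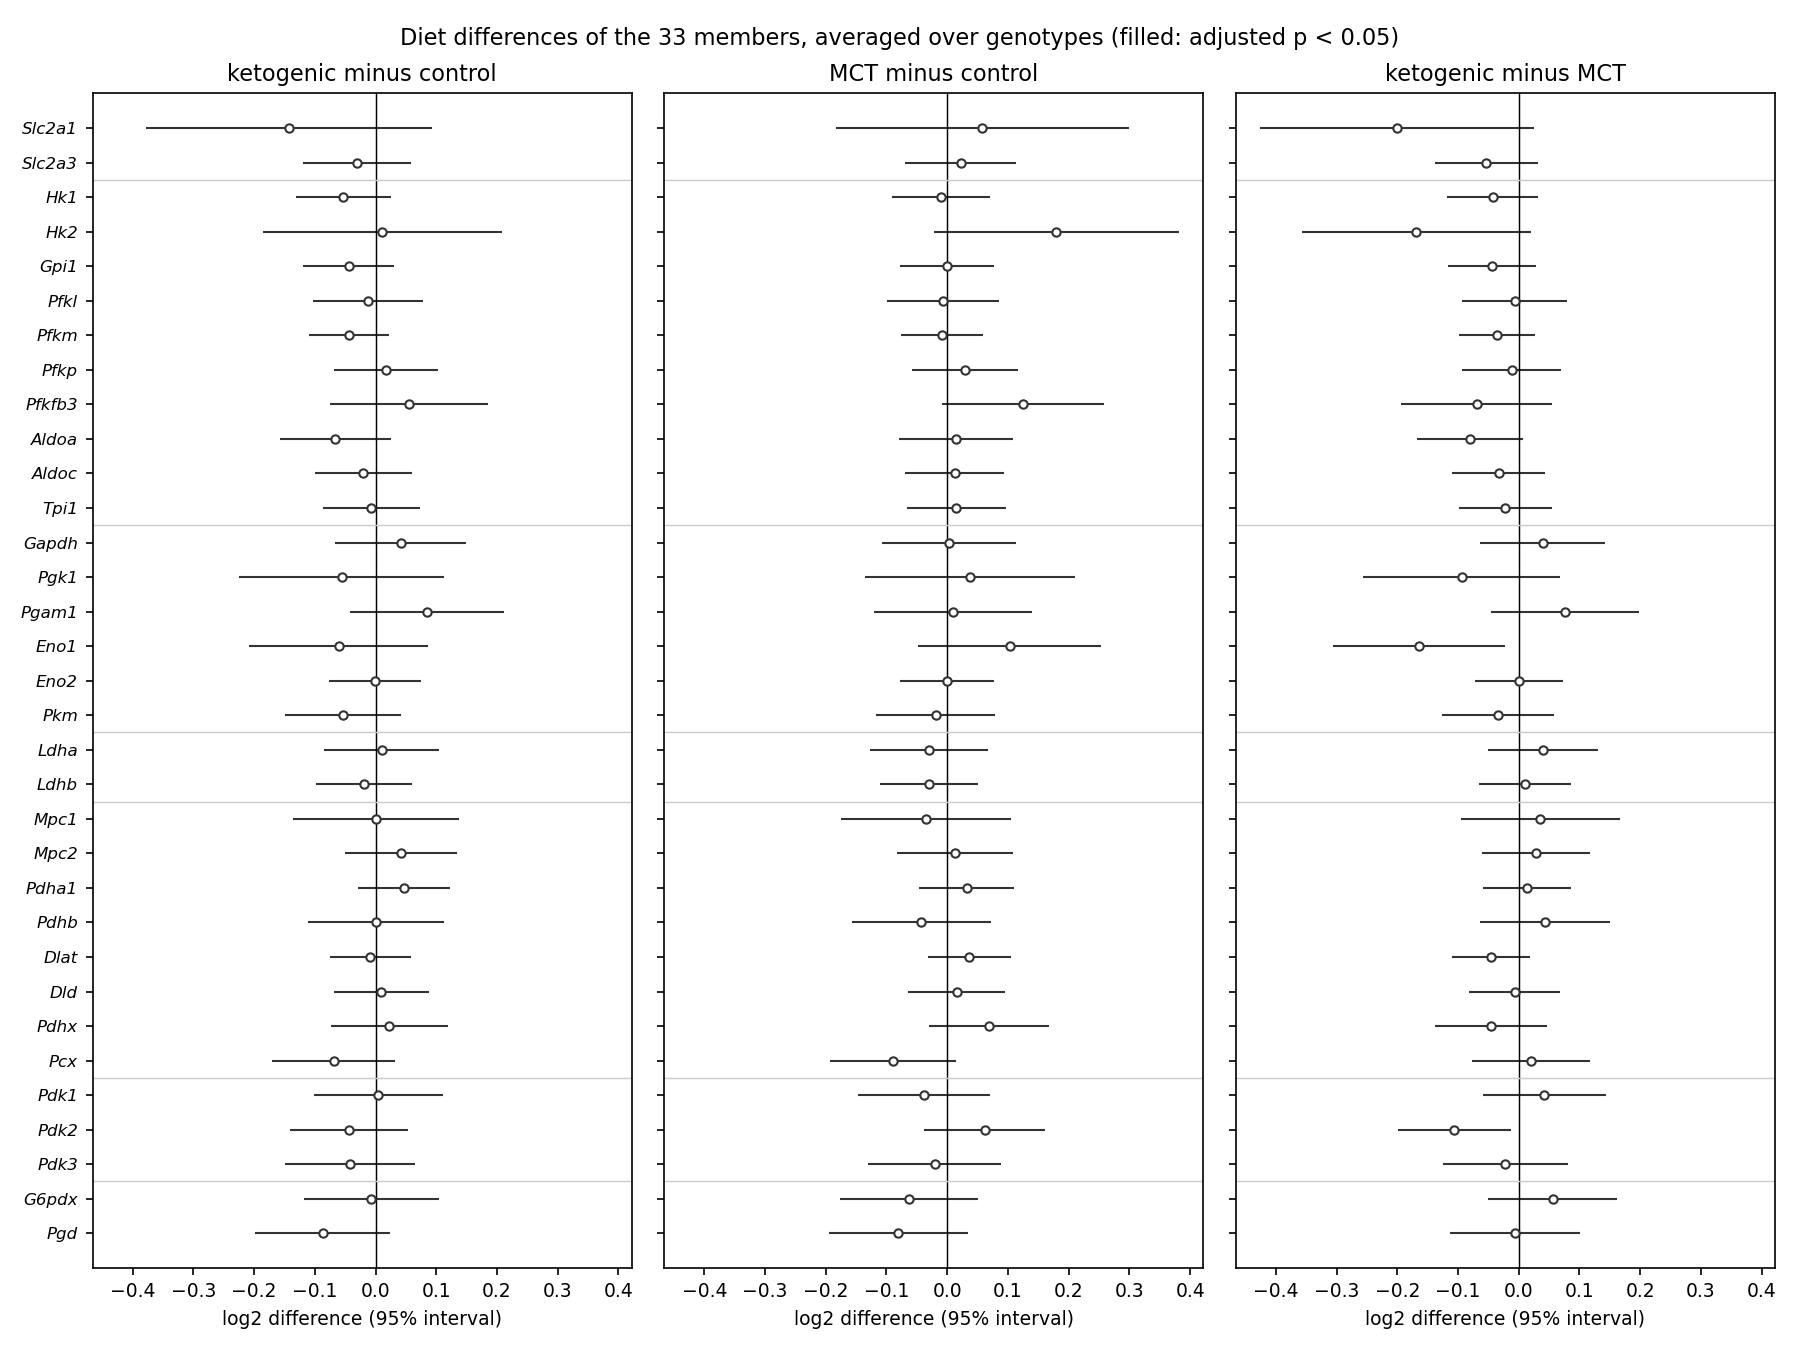
Log2 differences between diets averaged over genotypes (x axis) with 95% intervals for the 33 members (y axis), ketogenic minus control, MCT minus control and ketogenic minus MCT. No symbol is filled, since no member had an adjusted p under 0.05, and Slc2a1 has the widest interval in each panel.

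The levels of the members span a wide range, given here per kb of exon. The length joins all annotated exons of a gene, which can be far longer than 1 transcript. For Pfkp it was 13401 bases, against 4145 for its longest protein-coding transcript, and for Slc2a3 7245 against 3959. The order of the genes, also among transporters and phosphofructokinase subunits, can therefore change with the length used. Aldoa, the main aldolase of neurons, was the highest at 6379 normalised counts per kb, and Aldoc, the aldolase of astrocytes, followed at 2735. Eno2, the neuronal enolase, stood at 2132, Pkm at 2014 and Ldhb at 2007. Hk2 was the lowest at 20.7, against 580 for Hk1, the constitutive brain hexokinase. Pgk1 stood at 98.4 and Gapdh at 413, both with large shared parts: 78.0% of windows for Gapdh, found in 86 other genes of which 80 are pseudogenes, and 67.0% for Pgk1. How reads that match such copies were counted is not given, so these levels are uncertain. Pfkp shared 16.0% of its windows with Pitrm1, which overlaps it on the opposite strand, and Pdha1 shared some with Map3k15, likewise on the opposite strand. Of the members called, Pdhx, Dld, Pfkl and Pcx shared no window. Slc2a1 stood at 342 and Slc2a3 at 303 per kb. Of the subunits of phosphofructokinase, Pfkm was at 1301, Pfkl at 389 and Pfkp at 256. In the pyruvate dehydrogenase complex Pdha1 was at 1250, Dld at 768, Dlat at 443, Pdhb at 383 and Pdhx at 211, and of its kinases Pdk2 was at 360, Pdk3 at 221 and Pdk1 at 123. The coefficient of variation over the 24 libraries was 13.9% for Hk2, 11.0% for Eno1, 10.8% for Pgk1 and lowest for Pfkm at 3.79%.

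**Figure D4:**
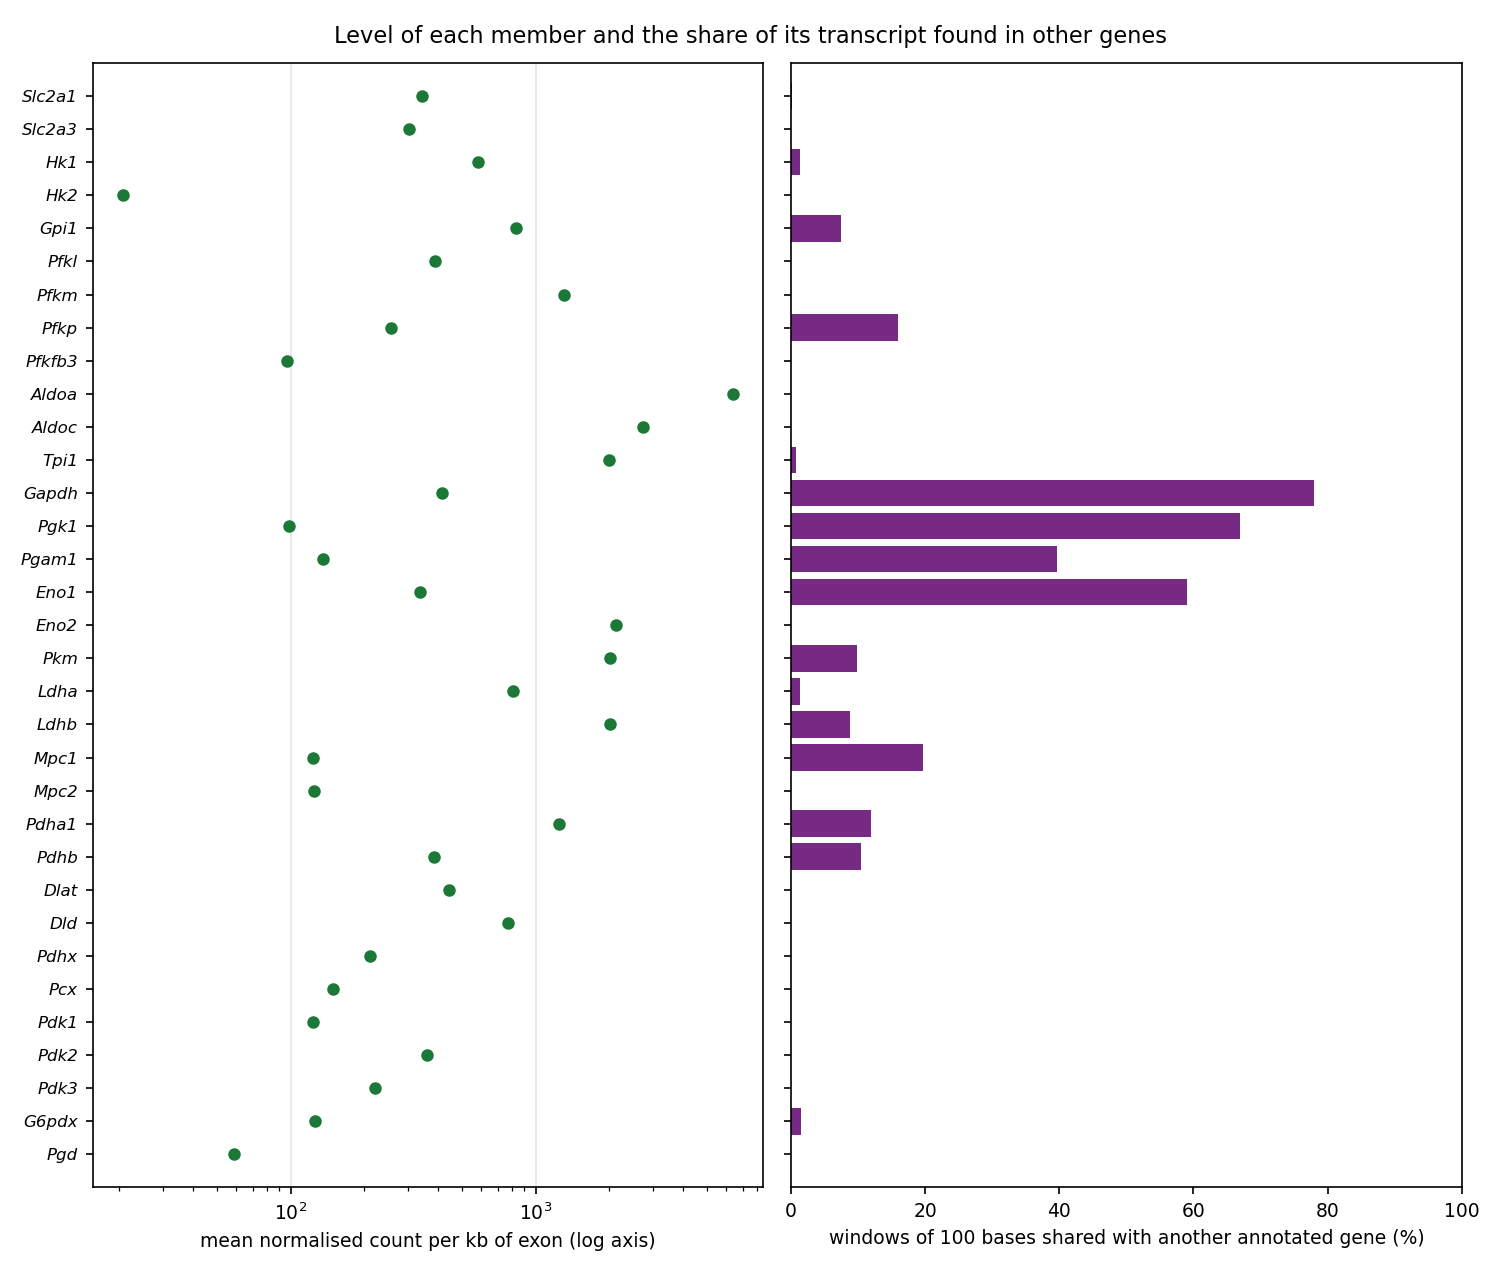
Mean normalised count per kb of exon on a log axis (left) and percentage of 100-base transcript windows also present in another annotated gene (right) for each member, in role order. Gapdh, Pgk1, Eno1 and Pgam1 have the largest shared parts, from 39.7% to 78.0%, and no other member is above 20%.

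Around the members, 56 other genes of glucose and pyruvate handling were listed and 47 passed the filter. Averaged over diets, 5 of them (10.6%) differed between genotypes, against 8.1% of all genes. Slc16a1, the monocarboxylate transporter that carries lactate and ketone bodies, fell by 0.45 on the log2 scale (limma adjusted p = 0.00526). Gpd2, the mitochondrial glycerol-3-phosphate dehydrogenase, fell by 0.13 (adjusted p = 0.00301). Pdk4, a kinase that switches off pyruvate dehydrogenase in fasting, rose by 0.58 (adjusted p = 0.0357), Txnip, which restrains glucose uptake, by 0.38 (adjusted p = 0.0211) and Slc25a13, a mitochondrial aspartate-glutamate carrier, by 0.45 (adjusted p = 0.0357). Leaving out a library in turn ended the call of Pdk4 in 14 of 24 fits, of Slc25a13 in 13 and of Txnip in 2, and those of Slc16a1 and Gpd2 in 0.

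Pdk4 stood at 267.1, 513.2, 724.2, 398.8 and 420.0 on the ketogenic, 523.1, 498.2, 533.0 and 400.9 on the MCT and 496.1, 549.6 and 212.7 on the control diet in 3xTg mice. In WT mice it stood at 214.2, 294.8, 422.3 and 270.9 on the ketogenic, 203.0, 475.6, 287.2 and 446.3 on the MCT and 299.7, 232.5, 306.6 and 198.0 on the control diet. The 2 libraries lowest in 3xTg and the highest in WT are those whose Thy1 went against the label. Without these 3 libraries the log2 difference of Pdk4 was 0.84 (limma adjusted p = 0.000218) and that of Slc16a1 -0.59 (adjusted p = 1.89e-05), and Got1, Hkdc1 and Ldhd were also called, 8 of 47 in all, against 13.2% of all genes. Over the 21 fits that left out 1 of those libraries, Pdk4 and Slc16a1 were called in 21, Got1 in 10, Hkdc1 in 8 and Ldhd in 5. Slc16a1 is a gene of the endothelium too, whose markers were lower in 3xTg as given above, and their part in its fall was not tested. Between diets none of the 47 was called. The smallest p were those of Slc25a11, Tigar and Hif1a for ketogenic minus control, at -0.09, -0.09 and -0.08, and of Hif1a, Txnip and Slc2a6 for MCT minus control, at -0.11, 0.29 and 0.16.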

How the data were processed

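Hippocampal mRNA was sequenced from 24 mice, with 500 ng of total RNA, 11 PCR cycles and a RNA integrity number above 8, per the labels' protocols. Trimmomatic, STAR and the GRCm38 genome are named in the submitters' processing notes. The gene counter, the annotation and the handling of multi-mapping reads and of UMIs were not given in the sources used here. Signal values were deposited, normalised by the authors. They are counts divided by 1 factor per library, since dividing by a library's step gave whole reads within a tolerance of 0.01 for 100% of values. These recovered reads served the edgeR and DESeq2 alternatives.

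Log2(normalised count + 1) was fitted with limma 3.58.1 in R 4.3.3 for the 6 groups, with an intensity trend, over genes with a value of at least 10 in at least 3 libraries. P-values were two-sided and adjusted by Benjamini-Hochberg over all genes tested, with calls made below an adjusted p of 0.05. Of the 13 comparisons, 4 were of genotype, 7 of diet and 2 of their interaction. Fold changes are on the log2(value + 1) scale. Alternatives used edgeR 4.0.16, DESeq2 1.42.0, other scalings, filters and sets of libraries, and the fit was tested on simulated data. Positions and exon lengths are from GENCODE M21 on GRCm38, promoters from RefSeq on GRCm38.p6. The symbol Aldoa names 2 GENCODE genes, of which 1 was used. A chi-square test of reads found no duplicated library, with at least 1.56 per degree of freedom in every pair. The replicate number was not taken to pair the mice. The 33 members, the other gene lists and the tests were chosen with earlier results of these data known. Called members are given in full and, in a group with no called member, the one with the smallest p. Counts carry counting error besides the spread between mice, which the SDs and p-values hold.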

Additional observations from a re-analysis of the deposited data

Results flagged for a closer look

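A search of each member in each group of 4 or 5 libraries for a value far from the rest found 14 of 165, where chance flags about 1 in 20. Values are normalised counts. In WT_C_1, Hk1 was low at 4776.1 and Pcx was low at 670.0. In WT_C_4, Ldhb was high at 3159.5, Dld at 2836.9 and Pdhx at 831.5. In WT_M_3, Pfkfb3 was high at 967.8, while Dld at 2707.8 and Pgd at 287.2 were low. In 3xTg_M_3, Pfkfb3 was high at 837.6 and Mpc1 at 274.4. Pfkp was low in WT_K_3 at 3008.3, Pdk3 low in WT_K_4 at 514.3, Mpc2 high in WT_M_4 at 1021.3, and Pdk2 high in WT_M_2 at 1308.8, a library whose Thy1 went against its label.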

How the results depend on the processing

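Averaged over diets, 5 members were called between genotypes with all 24 libraries. The count was 2 with no filter on low values (Pdhx and Pfkl) and 2 without the shallow library 3xTg_K_2. It was 4 in the 21 libraries, 5 with edgeR, 6 with DESeq2, 7 with library weights, and ran from 0 to 6 when libraries were left out in turn, with 0 without 3xTg_C_1. Leaving out libraries in turn from the 21, which gave 1 to 6, was chosen after seeing the data, as was the fit without those 3 and the shallow library. No member was called in the other 12 comparisons, except for 1, Pfkl, on the control diet without WT_C_1 and on the MCT diet without 3xTg_M_3, each out of the 21, so those counts ranged from 0 to 1. None of the members and other pathway genes called between genotypes with 24 or 21 libraries changed direction in any alternative run. Among the other members G6pdx and Pdk1, both near 0, changed sign in the 21 libraries. Same-numbered libraries of different groups correlated between -0.26 and 0.25 over 55 pairs, and different-numbered ones between -0.43 and 0.40 over 184 pairs. The number was therefore not taken as a pairing. With the replicate block 6 members were called, and 1177 genes against 1147. Depth limits Hk2 and Pgk1 most, with 31 reads in the shallow library.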
